A study of Mus musculus with 6 samples.

Results

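The genes described here are Trp53, which encodes the transcription factor p53, its regulators and genes that p53 is known to switch on. They were chosen as 31 gene symbols, and all 31 were found among the 25965 rows of the count table, with 9630033F20Rik as the table's name for Tigar. RNA had been sequenced from 6 mouse cell lines, all positive for BCR-ABL, the fusion kinase of the Philadelphia chromosome. The 3 KO lines (KO1, KO2 and KO3) are labelled Cdk6 knock out, and the protocol names a Cas9 plasmid with guides against CDK6, a kinase of the G1 phase. The 3 WT lines (WT1, WT2 and WT3) are labelled Cdk6 wild type, and the protocol names a control plasmid. After sorting for GFP, clones had been grown from single cells, and the knockout had been checked by Western blot, so that each KO line may differ from the others by its clonal origin. The labels do not say that the replicates were separate cultures, and p-values therefore measure the spread between these libraries.

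The p53 protein is held at low levels by MDM2, an E3 ligase that marks it for destruction, and by MDM4, which binds its activation domain. DNA damage or oncogene signalling relieves this restraint, and p53 then raises transcription of genes for growth arrest, DNA repair and cell death. Several of its targets, among them Mdm2, Ccng1 and Ppm1d, feed back to dampen it. BCR-ABL transformed B-lineage cells are known to come under selection against the ARF and p53 pathway. Since p53 is controlled mostly at the protein level, the amount of its mRNA says little about its activity.

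Total counts ran from 17859519 to 20415572 in the KO libraries and from 19060127 to 24108563 in the WT libraries. Levels are CPM, each count over its library's TMM-scaled size, and 3 counts correspond to 0.142 to 0.165 CPM in KO and 0.125 to 0.16 CPM in WT, a floor that covers counting error only. Cdk6 itself lay at 41.3, 75.2 and 39.0 CPM in KO1 to KO3, against 39.7, 45.7 and 55.9 CPM in WT1 to WT3. The groups overlapped in this check of the labels (log2 fold change 0.14 ± 0.29 SE, edgeR adjusted p = 0.90; two-sided exact permutation test p = 0.9, and 0.8 with CPM by library total, where the smallest p of 3 against 3 libraries is 0.1). A gene's summed counts cannot reveal a small deletion, so Cdk6 RNA leaves the knockout unchecked, and KO and WT name the libraries as labelled. Library KO2 stood apart: it held the highest value of the 6 libraries in 31.1% and the lowest in 33.5% of the 10896 genes tested. The labels give no cell type, but all 10 early B lineage markers were detected, with a summed level of 4070 to 5380 CPM in KO and 4640 to 4750 CPM in WT. Cd3e, Cd4, Cd8a, Elane, Cebpa, S100a8, S100a9, Gp1bb, Ncr1, Col1a2 and Dcn, markers of T, myeloid, megakaryocytic, NK and stromal cells, were at 0 in every library. The myeloid markers summed to 16.5 to 42.6 CPM in KO and 28.7 to 44.2 CPM in WT, with 3 of the 8 above the floor in at least 1 library. Among them Lyz2, lysozyme, lay at 12.2, 15.9 and 14.7 CPM in KO1 to KO3, against 38.9, 27.2 and 37.1 CPM in WT1 to WT3, each KO value below each WT value (log2 fold change -1.27, unadjusted p = 0.000561 and adjusted p = 0.479 in edgeR). Itgam, at 28.9 CPM in KO1, made up most of the sum there. The NK markers summed to 15.7 to 82.7 CPM in KO and 17.7 to 26.2 CPM in WT, and the remaining lists stayed at or below 2.42 CPM. The part of these levels in the results was not tested.

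Promoter sequence shows which of the genes carry the letters of a p53 motif next to an annotated start. RefSeq windows of 250 bases before to 50 bases after the start (GRCm38.p6) were found for 24 of the 31 genes. The p53 response element is built from a motif of 10 bases with C and G at fixed core positions, which reads the same on both strands. An exact match was present in a window of 10 of the 24 genes, or 41.7%, against 9.55% of all 27025 genes with a window and 7.69% of the 7773 tested genes matched by current symbol. The median GC content was 61.8% for the 24 genes, against 52.8% and 60.7% in these sets. Matches side by side, with at most 1 mismatch in 20 bases and none in the core letters, were present in 2 of the 24 genes (8.33%), against 22 of all genes (0.0814%). That definition of a pair was chosen after the windows had been searched. The stretches below hold the pairs of Ccng1 and Rps27l, the 2 genes with such a pair. They also hold the matches of Trp53, Mdm2 and Polk, on which the results turn. Rps27l and Polk have 2 windows each, and the matches shown stand before an internal start. It lies 1789 bases inside Rps27l and 23392 bases inside Polk, counted from the outermost annotated start. Rps27l has a further exact match, 210 to 201 bases before the same internal start, which is not shown. Capitals mark the match.
Ccng1 (chr11:40755442-40755501, minus strand, match 195 to 176 bases before the start): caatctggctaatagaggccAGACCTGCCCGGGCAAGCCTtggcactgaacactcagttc
Rps27l (chr9:66946276-66946335, plus strand, match 117 to 98 bases before the internal start): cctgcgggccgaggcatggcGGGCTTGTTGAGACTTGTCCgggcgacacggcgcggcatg
Trp53 (chr11:69580264-69580313, plus strand, match 75 to 66 bases before the start): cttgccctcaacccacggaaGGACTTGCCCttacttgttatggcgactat
Mdm2 (chr10:117710915-117710964, minus strand, match 186 to 177 bases before the start): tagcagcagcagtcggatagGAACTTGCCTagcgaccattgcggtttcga
Polk (chr13:96519389-96519437, minus strand, match 231 to 222 bases before the internal start): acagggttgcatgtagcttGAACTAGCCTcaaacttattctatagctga
The other 5 genes with a match were Gadd45a, Aen, Ckap2, Ei24 and Ppm1d. These matches describe letters in a window and do not show binding, and many p53 sites lie outside such windows. For Trp53inp1, Zmat3, Tnfrsf10b, Rrm2b, Perp, Ddb2 and Xpc no window was used.

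The genes differed widely in level. Per kilobase of merged exons (GENCODE M21), Rps27l, a ribosomal protein paralog induced by p53, had the highest level, with means of 93.7 CPM per kb in KO and 107.4 CPM per kb in WT. Reads of Rps27l may be shared with its near copy Rps27, so this value is uncertain. Trp53 came next, at 68.5 CPM per kb in KO and 69.8 CPM per kb in WT. Ckap2 (30.1 in KO and 31.4 in WT) and Ccng1 (32.8 in KO and 28.8 in WT, all CPM per kb) were neighbours in this order. Their ranges overlapped over the KO libraries but not over the WT libraries, where Ckap2 was higher. At the low end, Btg2 lay at 2.71 CPM per kb in KO and 1.72 in WT, Fas at 0.507 and 0.395, and Tnfrsf10b at 0.141 and 0.196.

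**Figure D1:**
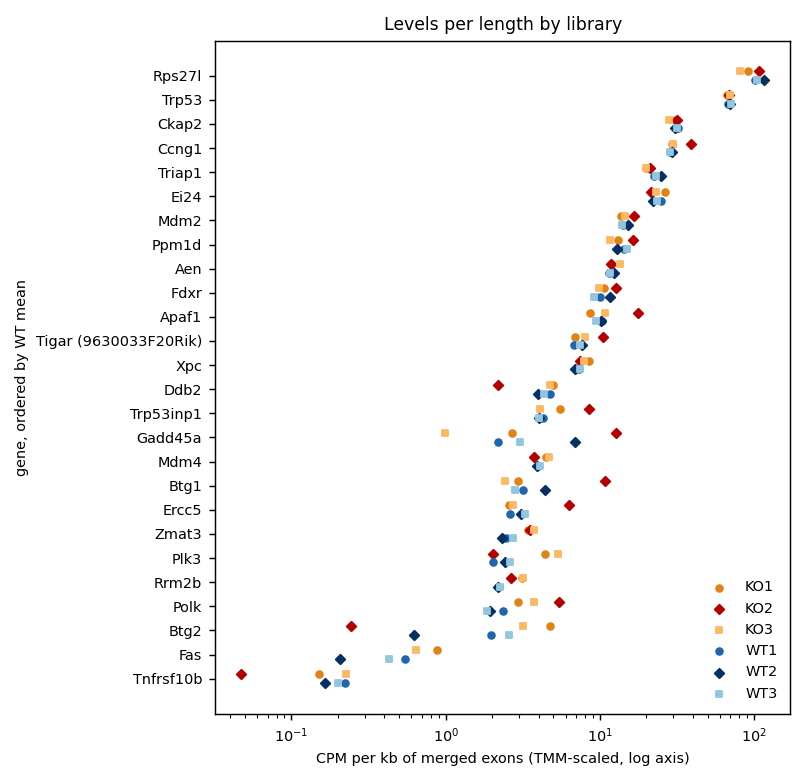
Levels of the 26 tested genes per kilobase of merged exons (x axis, TMM-scaled CPM per kb, log scale), ordered by the WT mean, with 1 point per library and the KO points above the WT points of each gene. The 3 WT points of most genes lie close together while the KO2 diamond often stands away, and Fas in KO2, at 0 counts, cannot be drawn on a log axis.

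Several genes that p53 switches on in other cells were silent or nearly so in both groups. Perp, a membrane protein of p53-dependent apoptosis, and Plk2, a polo-like kinase, had 0 counts in all 6 libraries. Gdf15, a secreted stress cytokine, had 0 counts in the KO libraries and 0, 0 and 1 count in WT1 to WT3. Phlda3, which restrains AKT at the membrane, had 0 counts in the KO libraries and 4, 0 and 0 counts in WT1 to WT3. Eda2r, a TNF receptor family member, had 1, 6 and 9 counts in KO1 to KO3, against 15, 5 and 6 counts in WT1 to WT3. These 5 genes did not pass the filter on low counts, and no fold change is given for them.

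The comparison of KO with WT asked which of these transcripts differ with the Cdk6 label. None of the 26 tested genes passed edgeR's quasi-likelihood test at an adjusted p under 0.05, over all genes tested (adjusted p from 0.479 to 0.968), and 0% of all 10896 genes passed it. At an unadjusted p under 0.05 there were 3 of the 26, or 11.5%, against 1030 of all tested genes, or 9.45%, a share near the background. The log2 fold change was positive for 19 of the 26, or 73.1%, against 52.8% of all tested genes, with a median of 0.16 against 0.02. The median of the 26 was 0.10 with the replicate number as a block and 0.04 without KO2, with 15 of the 26 then positive. Over all tested genes the median was -0.009 with the block. Without KO2 it was 0.007 over all tested genes, with 5637 of 11043 positive. Every KO library exceeded every WT library for 4 of the 26 genes (Ccng1, Zmat3, Rrm2b and Polk), where 8.58% of all tested genes did so. Every KO library was below every WT library for 1, Triap1, where 11.0% of all tested genes did so. With CPM by library total in place of TMM these background shares were 10.6% above and 8.68% below, and the same 5 genes separated the groups.

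DESeq2, run as an alternative, called 3 of the 27 genes to which it gave an adjusted p, all higher in KO, where it called 1.94% of all genes. They were Zmat3 (log2 fold change 0.51, DESeq2 adjusted p = 0.00581), Polk (0.99, adjusted p = 0.0472) and Rrm2b (0.44, adjusted p = 0.0472). Without KO2 it called these 3 and Plk3, where 5.95% of all genes were called. Without WT2 and KO2 it called Plk3 only (1.09, adjusted p = 0.0365), where 2.89% of all genes were called. In that fit the DESeq2 adjusted p of Zmat3, Polk and Rrm2b was 0.127, 0.206 and 0.11.

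**Figure D2:**
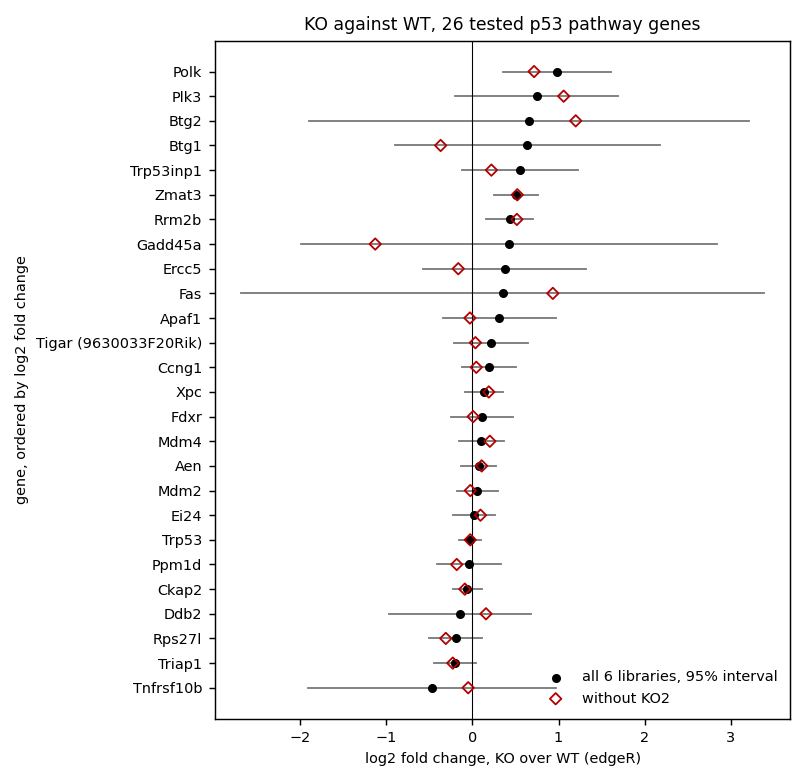
The log2 fold change of KO over WT (x axis) for each of the 26 tested genes (y axis, ordered by value). Black points and grey lines give the edgeR value and 95% interval over all 6 libraries, and red diamonds give the value without KO2. The intervals of Polk, Zmat3 and Rrm2b lie above 0 before adjustment over all genes, and the values of Mdm2, Btg1, Gadd45a, Apaf1, Ddb2 and Ercc5 change sign without KO2.

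Trp53 mRNA was nearly level across the lines. It lay at 270.1, 278.2 and 282.7 CPM in KO1 to KO3, against 274.9, 284.0 and 288.7 CPM in WT1 to WT3. The groups overlapped, and the difference was smaller than the spread between libraries (log2 fold change -0.03, 95% interval -0.16 to 0.10, edgeR adjusted p = 0.886). Mdm2, the main E3 ligase of p53 and itself a p53 target, lay at 69.4, 85.0 and 74.3 CPM in KO1 to KO3, against 71.6, 77.5 and 71.1 CPM in WT1 to WT3. KO2 was highest and KO1 lowest of the 6 (0.05, 95% interval -0.19 to 0.29). Mdm4, the partner of MDM2 that masks p53, lay at 66.1, 55.2 and 69.4 CPM in KO1 to KO3, against 59.1, 57.5 and 60.8 CPM in WT1 to WT3. KO1 and KO3 stood above all WT libraries and KO2 below them (0.10, 95% interval -0.15 to 0.36).

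Ppm1d encodes the phosphatase WIP1, which removes activating phosphates from p53 and ATM. It lay at 41.4, 52.3 and 36.9 CPM in KO1 to KO3, against 45.7, 40.8 and 47.4 CPM in WT1 to WT3. The KO lines spread on both sides of the WT lines (log2 fold change -0.04, 95% interval -0.41 to 0.34). Ccng1, cyclin G1, a target that feeds back on p53 through MDM2, lay at 102.9, 137.9 and 104.6 CPM in KO1 to KO3, against 100.5, 102.8 and 99.8 CPM in WT1 to WT3. The groups did not overlap, but KO1 exceeded WT2 by little and the difference rested on KO2 (0.19, edgeR adjusted p = 0.662; 0.04 without KO2). Trp53inp1, a stress-induced nuclear protein that promotes p53 activity, lay at 35.6, 55.0 and 26.3 CPM in KO1 to KO3, against 27.9, 26.1 and 25.99 CPM in WT1 to WT3. KO1 and KO2 were high and KO3 lay among the WT libraries (0.55, 95% interval -0.13 to 1.22, edgeR adjusted p = 0.573; 0.22 without KO2).

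**Figure D3:**
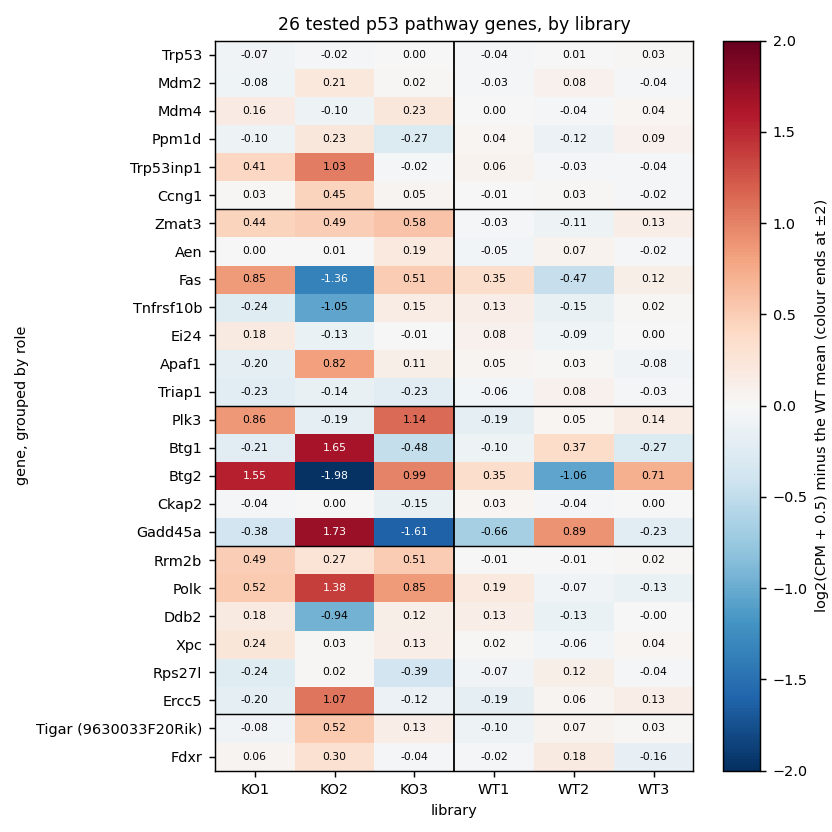
Difference of log2(CPM + 0.5) from the WT mean in each library (columns, KO left of WT) for the 26 tested genes (rows, grouped by role, separated by lines). Red is higher and blue lower than the WT mean, and the number in each cell is the difference. The KO2 column holds both deep red cells (Gadd45a 1.73, Btg1 1.65) and deep blue ones (Btg2 -1.98, Fas -1.36).

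Among the genes of apoptosis, Zmat3, which encodes an RNA-binding protein induced by p53, was higher in each KO library than in any WT library. It lay at 38.9, 40.2 and 42.8 CPM in KO1 to KO3, against 28.1, 26.4 and 31.4 CPM in WT1 to WT3. The 3 KO values lay close together, and means were 40.7 ± 1.98 CPM in KO and 28.6 ± 2.52 CPM in WT (SD, n = 3 each). The log2 fold change was 0.51 (95% interval 0.25 to 0.76, unadjusted p = 0.00281 and adjusted p = 0.479 in edgeR), and 0.52 without KO2.

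Triap1, a small protein that holds back apoptosome assembly, was the 1 gene whose KO values were each lower than every WT value. It lay at 21.7, 23.1 and 21.7 CPM in KO1 to KO3, against 24.5, 27.1 and 25.0 CPM in WT1 to WT3. The difference was small (log2 fold change -0.20, 95% interval -0.45 to 0.04, edgeR adjusted p = 0.563). Apaf1, the scaffold of the apoptosome, lay at 78.1, 159.0 and 96.9 CPM in KO1 to KO3, against 92.7, 91.7 and 84.9 CPM in WT1 to WT3. KO2 alone was high, and the log2 fold change of 0.31 over all libraries was -0.03 without KO2. Fas, a death receptor, had 33, 0 and 28 counts in KO1 to KO3, against 27, 8 and 18 counts in WT1 to WT3. Tnfrsf10b, the receptor for the death ligand TRAIL, had 15, 5 and 26 counts in KO1 to KO3, against 29, 17 and 22 counts in WT1 to WT3. Both death receptors were lowest in KO2, at counts too low for a narrow interval (Fas 0.35, 95% interval -2.69 to 3.39; Tnfrsf10b -0.47, 95% interval -1.91 to 0.97). Aen, a nuclease induced by p53, and Ei24 had log2 fold changes of 0.07 and 0.02, with groups that overlapped. Of the exon bases of Ei24, 6.66% are shared with the antisense gene Gm26787.

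Several genes of growth arrest differed widely between lines of the same group. Plk3, a polo-like kinase of the stress response, lay at 11.2, 5.13 and 13.6 CPM in KO1 to KO3, against 5.13, 6.13 and 6.58 CPM in WT1 to WT3. KO1 and KO3 lay above all WT libraries and KO2 did not (log2 fold change 0.74, 95% interval -0.20 to 1.69, edgeR adjusted p = 0.582; 1.06 and edgeR adjusted p = 0.184 without KO2). Its exons share 3.32% of their bases with Tctex1d4 on the other strand, and the strand setting of the counts is not given in the sources used here.

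The antiproliferative paralogs Btg1 and Btg2 went opposite ways in KO2. Btg1 lay at 15.4, 57.3 and 12.8 CPM in KO1 to KO3, against 16.7, 23.3 and 14.9 CPM in WT1 to WT3. Btg2 lay at 13.0, 0.667 and 8.65 CPM in KO1 to KO3, against 5.39, 1.71 and 7.03 CPM in WT1 to WT3. For Btg1 the highest WT library was WT2, and for Btg2 the lowest was WT2, so WT2 leaned the same way as KO2 in both. Their edgeR log2 fold changes had wide intervals (Btg1 0.64, -0.90 to 2.18; Btg2 0.66, -1.90 to 3.21), and without KO2 the value of Btg1 was -0.37 and that of Btg2 was 1.20.

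Gadd45a, which couples damage to arrest and repair, lay at 4.78, 22.3 and 1.75 CPM in KO1 to KO3, against 3.84, 12.3 and 5.35 CPM in WT1 to WT3. KO2 and WT2 were the highest pair and KO3 the lowest of all. The log2 fold change of 0.43 (95% interval -1.99 to 2.84) was -1.13 without KO2. Its exons share 19.1% of their bases with E230016M11Rik on the other strand. Ckap2, a spindle protein, had a log2 fold change of -0.06 with a 95% interval of -0.23 to 0.11.

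**Figure D4:**
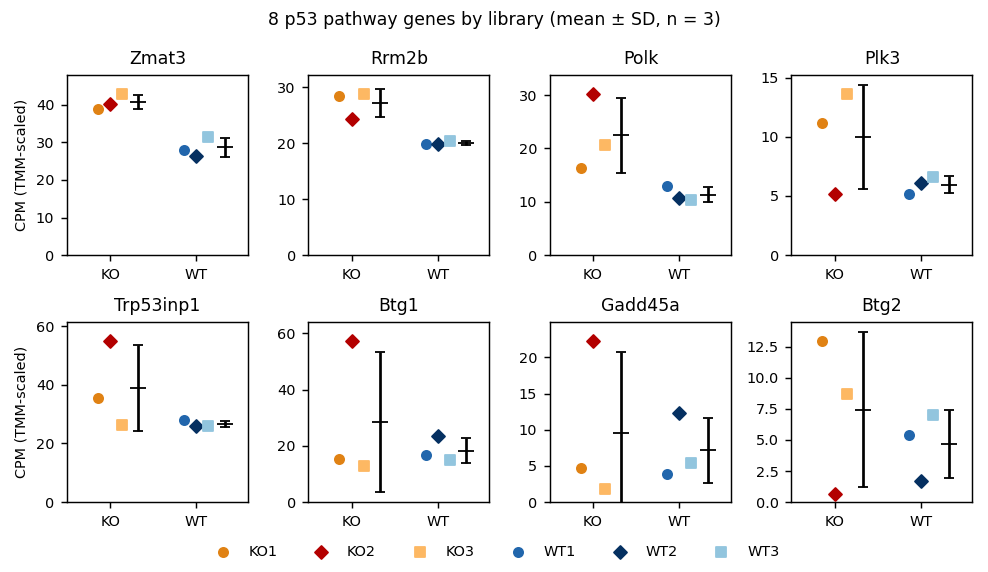
CPM of 8 genes by library (y axes start at 0), KO left of WT, with the mean and SD of each group as a bar with whiskers (n = 3, the lower whisker of Gadd45a in KO ends at the axis). Zmat3, Rrm2b and Polk separate the groups, Plk3 is high in KO1 and KO3 only, Btg2 is highest in KO1 with KO3 just above WT3, and Trp53inp1, Btg1 and Gadd45a are highest in KO2.

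In the repair group, Rrm2b and Polk separated KO from WT. Rrm2b, the p53-induced small subunit of ribonucleotide reductase, lay at 28.4, 24.3 and 28.8 CPM in KO1 to KO3, against 19.9, 19.9 and 20.4 CPM in WT1 to WT3. The WT libraries were close together and each KO library stood above them (27.2 ± 2.52 CPM in KO and 20.1 ± 0.302 CPM in WT, SD, n = 3 each). The log2 fold change was 0.44 (95% interval 0.16 to 0.71, unadjusted p = 0.00817 and adjusted p = 0.479 in edgeR), and 0.52 without KO2. Of its exon bases 8.04% are shared with the antisense gene Gm49085. Polk, a translesion DNA polymerase that copies past damaged bases, lay at 16.4, 30.2 and 20.7 CPM in KO1 to KO3, against 13.0, 10.8 and 10.3 CPM in WT1 to WT3. KO2 was highest, and KO1 and KO3 also stood above all WT libraries. The log2 fold change was 0.98 (95% interval 0.35 to 1.61, unadjusted p = 0.00901 and adjusted p = 0.479 in edgeR), and 0.72 without KO2.

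The nucleotide excision repair genes had values on both sides of 0. Ddb2, a sensor of ultraviolet lesions, lay at 13.6, 5.95 and 13.0 CPM in KO1 to KO3, against 13.1, 10.9 and 11.9 CPM in WT1 to WT3. KO2 was lowest and the groups overlapped (log2 fold change -0.14, 95% interval -0.97 to 0.68). Its exons share 23.8% of their bases with Acp2 on the other strand, so some of its reads may belong to that gene. Ercc5, the endonuclease XPG, lay at 15.1, 37.1 and 16.03 CPM in KO1 to KO3, against 15.2, 18.2 and 19.2 CPM in WT1 to WT3. KO2 alone was high, and the log2 fold change of 0.38 was -0.17 without KO2. Xpc, which recognises distorted DNA, lay at 40.6 to 46.9 CPM in KO and 38.2 to 40.8 CPM in WT, with groups that overlapped (0.14, 95% interval -0.08 to 0.35). Rps27l lay at 66.6 to 88.5 CPM in KO and 82.98 to 94.98 CPM in WT (-0.20, 95% interval -0.50 to 0.11), with groups that overlapped.

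Of the metabolic genes, 9630033F20Rik (Tigar), a phosphatase that lowers glycolytic flux, lay at 25.3, 38.4 and 29.2 CPM in KO1 to KO3, against 25.0, 28.1 and 27.2 CPM in WT1 to WT3. KO2 was highest and KO1 lay among the WT libraries (log2 fold change 0.21, 95% interval -0.22 to 0.64). Of its exon bases 3.34% are shared with the antisense gene Platr31. Fdxr, ferredoxin reductase of the mitochondrion, had a log2 fold change of 0.11, with groups that overlapped.

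Because KO2 stood apart, each gene was also set beside its neighbours on the chromosome. The shift is the median, over tested genes within 5 Mb with a mean of at least 5 CPM, of the log2 difference from the WT mean. It reached 0.3 in size for 3 of the 31 genes in KO2. The share of all genes in such regions was not computed, so the count describes these genes only. The 3 genes were Polk on chromosome 13 (0.62 over 47 neighbours), 9630033F20Rik on chromosome 6 (0.55 over 53) and the silent Plk2 on chromosome 13 (0.61 over 20). Polk and Plk2 lie close enough that their windows of 10 Mb on each side overlap. Polk itself stood 1.38 above the WT mean in KO2 on the log2 scale, and 0.52 and 0.85 in KO1 and KO3, where its neighbours were at -0.03 and 0.01. Tigar stood 0.52 above the WT mean in KO2, close to its neighbours. Ccng1 stood 0.447 above the WT mean in KO2. Its neighbours were at 0.24 within 5 Mb (12 genes) and at 0.01 within 10 Mb (52 genes). Trp53inp1 (1.03), Btg1 (1.65), Gadd45a (1.73), Ercc5 (1.07) and Apaf1 (0.82) were high in KO2 with neighbours between -0.14 and -0.01. Btg2 (-1.98), Fas (-1.36), Tnfrsf10b (-1.05) and Ddb2 (-0.94) were low in KO2 with neighbours between -0.11 and 0.01. What underlies these shifts was not tested.

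**Figure D5:**
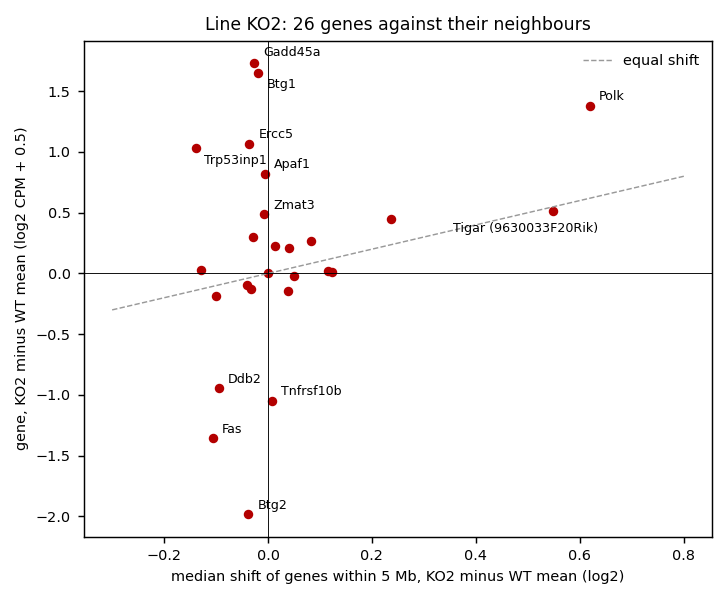
Difference of KO2 from the WT mean for each of the 26 tested genes (y axis, log2) against the median shift of the genes within 5 Mb in KO2 (x axis, log2), with a dashed line where both are equal. Polk and Tigar lie at the right, in regions shifted by 0.62 and 0.55, while the other labelled genes lie near 0 on the x axis.

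Beyond these genes, 19 other p53 targets, 16 upstream kinases and cofactors and 12 other inhibitors of p53 were followed. None of the 17, 16 and 12 tested genes of these lists passed edgeR in either direction, with median log2 fold changes of 0.26, 0.06 and -0.03, against 0.02 over all tested genes. For the 26 tested genes described above, KO2 held the highest value in 11 (42.3%) and the lowest in 7 (26.9%). The shares over all tested genes were 31.1% and 33.5%. Of the 17 tested other targets, 14 had a positive value (82.4%, against 52.8% of all tested genes). KO2 held the highest value in 12 of the 17 (70.6%, against 31.1% of all tested genes). The median difference of the 17 from the WT mean was 0.65 in KO2 but -0.09 in both KO1 and KO3. All tested genes had medians between -0.01 and 0.00 there. For the WT libraries the median of the 17 was -0.057, 0.155 and -0.069 in WT1 to WT3, so WT2 leaned the same way as KO2. Without KO2 the median log2 fold change of that list was -0.15. Lrdd (now Pidd1), an adaptor of a caspase-activating complex, lay at 98.0, 110.2 and 86.8 CPM in KO1 to KO3, against 75.8, 88.9 and 80.3 CPM in WT1 to WT3 (0.27, edgeR adjusted p = 0.532). Bbc3, the BH3-only protein PUMA, lay at 4.94, 7.597 and 7.71 CPM in KO1 to KO3, against 3.84, 5.17 and 4.31 CPM in WT1 to WT3 (0.60, edgeR adjusted p = 0.543). Psrc1, a spindle-associated target, had a log2 fold change of 0.37, and in all 3 genes the groups overlapped.

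Cdkn1a, the CDK inhibitor p21, was named after its values had been seen. It lay at 14.3, 55.7 and 24.0 CPM in KO1 to KO3, against 16.9, 24.8 and 13.0 CPM in WT1 to WT3. KO2 was highest, and KO1 and KO3 lay among the WT libraries (log2 fold change 0.78, 95% interval -0.56 to 2.12, edgeR adjusted p = 0.668; 0.08 without KO2).

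Upstream of p53, Cdkn2a encodes ARF, which binds MDM2 and so frees p53, and p16. It had 996, 1 and 793 counts in KO1 to KO3, against 757, 437 and 797 counts in WT1 to WT3. It was thus all but absent in KO2. Atm, the kinase that signals double-strand breaks to p53, lay at 103.7, 107.8 and 109.4 CPM in KO1 to KO3, against 96.6, 82.1 and 97.3 CPM in WT1 to WT3. All KO libraries stood above all WT libraries by a small margin (0.22, edgeR adjusted p = 0.529). Hipk2 and Rpl5 had log2 fold changes of -0.20 and -0.16. The groups overlapped for Hipk2 but not for Rpl5, where each KO value was below each WT value. Of the 16 genes of this list, 2 had all KO libraries above all WT libraries and 1 had them below. The shares over all tested genes were 8.58% and 11.0%. Among the inhibitors, Trim28, a corepressor that acts with MDM2, lay at 968.6, 735.9 and 952.0 CPM in KO1 to KO3, against 1114, 1109 and 1121 CPM in WT1 to WT3. Each KO value was below each WT value (-0.33, 95% interval -0.62 to -0.05, edgeR adjusted p = 0.499). Without KO2 the value was -0.21 in both tools, with an adjusted p of 0.194 in edgeR and 5.13e-05 in DESeq2. DESeq2 gave an adjusted p of 0.212 with all libraries and 0.0265 without WT2 and KO2. The methyltransferase gene Setd8 (now Kmt5a) and Usp7, which deubiquitinates MDM2 and p53, had log2 fold changes of -0.13 and -0.10.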

How the data were processed

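RNA from 6 cell lines was made into TruSeq libraries, according to the protocols in the labels. The authors deposited raw counts per gene symbol without normalization, with 1 column per library, and each column name matched 1 sample's label. DESeq2, STAR, Trim Galore and the build GRCm38 appear, without role or version, per the submitters' processing notes. No counting program or strand setting is given in the sources used here. The members and lists were chosen with earlier results of these data known.

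The counts were analysed with edgeR 4.0.16 in R 4.3.3, using TMM scaling, filterByExpr and a robust two-sided quasi-likelihood F test over all 6 libraries and 10896 genes. A gene was called at a Benjamini-Hochberg adjusted p under 0.05. Alternatives were RLE scaling, no filter, at least 1 CPM in 3 libraries, DESeq2 1.42.0, limma-voom (limma 3.58.1), the replicate number as a block, and libraries left out. CPM by library total was an alternative chosen later, with the values in view. In DESeq2, 3118 of 14330 rows had no adjusted p. All 31 genes are described, and from each wider list the 3 genes with the smallest p are named, with Cdk6 and Cdkn2a besides; Cdkn1a was picked outside this rule after its values had been seen. Pidd1 and Kmt5a were matched as Lrdd and Setd8.

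KO and WT libraries share replicate numbers. Deviations from the group means correlated across genes at 0.326, 0.643 and 0.457 between libraries numbered 1, 2 and 3. Each value passed the criterion of 0.1, but so did KO1 with WT3 and KO3 with WT1, so it does not single out pairs. The main edgeR fit left the numbers out, and they entered only as a block in an alternative fit. The labels do not say what a number shares, and KO1 correlated more with WT3 (0.361) than with its own number, while KO3 correlated with WT1 at 0.406.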

Additional observations from a re-analysis of the deposited data

How the results depend on the processing

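The absence of edgeR calls held under RLE scaling, both filters, the replicate block, limma-voom and every library left out. DESeq2 called 218 genes, 684 without KO2 and 340 without WT2 and KO2, or 1.94%, 5.95% and 2.89% of all genes with an adjusted p. Of these, 3, 4 and 1 were p53 members, out of 27 with an adjusted p in each fit. Among the 12 other inhibitors it called 0 with all libraries, and 1, Trim28, in each of the other fits. At an unadjusted p under 0.05, leaving out 1 library gave 408 (without WT3) to 2080 genes (without KO2), leaving out WT2 and KO2 gave 1780, and DESeq2 without KO2 gave 2251. The members' median log2 fold change was 0.0858 in limma-voom, 0.103 with the replicate block, 0.0638 without WT2 and KO2, and 0.0387 and 0.0628 in DESeq2 without KO2 and without both. It ran from 0.0395 (without KO2) to 0.171 with 1 library left out. With 1 library left out, members with all KO values above WT numbered 5 to 9 and below 1 to 3. Over all tested genes the shares were then 10.4% to 19.9% above and 12.6% to 21.9% below. Without WT2 and KO2 the members numbered 10 and 4 of 26, against 26.1% and 27.6% of all tested genes. Fewer libraries must separate in these settings.

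The median of the other targets was -0.101 without WT2 and KO2, -0.156 and -0.102 in DESeq2 without KO2 and without both, and -0.153 (without KO2) to 0.401 with 1 library left out. That of the kinases and cofactors ran from -0.0211 (without KO1) to 0.108. That of the inhibitors ran from -0.0871 (without KO3) to 0.00371 (without KO1), and was -0.051, -0.0724 and -0.0521 without WT2 and KO2, in DESeq2 without KO2 and in DESeq2 without both. With the longest transcript in place of merged exons the median WT level was 7.83 CPM per kb.

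Of 570 gene values over 38 genes, 42 in 12 genes changed sign, and the cause was not tested. Without WT2 and KO2, in DESeq2 without KO2 and in DESeq2 without both, the log2 fold change was -0.157, -0.371 and -0.159 for Btg1, -0.0143, -0.0311 and -0.0157 for Apaf1, and 0.0939, 0.154 and 0.0922 for Ddb2. In the same order it was -0.491, -1.13 and -0.491 for Gadd45a, -0.138, -0.165 and -0.139 for Ercc5, -0.245, -0.225 and -0.246 for Cdk6, and 0.381, 0.555 and 0.381 for Cdkn2a. Mdm2 was at -0.0256 in DESeq2 without KO2. In limma-voom and with the replicate block Fas was at -0.999 and -0.197 and Gadd45a at -0.122 and -0.0935.

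With 1 library left out the log2 fold change ran from -0.0246 to 0.119 for Mdm2, -0.183 to 0.0686 for Ppm1d, -0.287 to 0.934 for Fas, -0.37 to 0.988 for Btg1, and -0.00601 to 1.2 for Btg2. It ran from -0.0656 to 0.0931 for Ei24, -0.0296 to 0.512 for Apaf1, -0.331 to 0.157 for Ddb2, -1.13 to 1.06 for Gadd45a, and -0.165 to 0.599 for Ercc5. For Cdkn2a the range was -0.734 to 0.556, and for Cdk6 -0.224 to 0.306, with -0.166 to 0.258 for its log2 CPM difference by library total. Depth limits Fas, Tnfrsf10b and the genes that did not pass the filter, where a few counts decide the value.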
